A study of Mus musculus with 12 samples.

Results

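A list of 30 genes of cholesterol and fatty acid synthesis was followed in the mouse T cell line BW5147, which derives from a thymic lymphoma. A gene was represented by the probe set whose platform annotation named that gene alone and that had the highest mean log2(signal + 16) over 12 arrays. Of the 30 genes, 28 had such a probe set, out of 12393 genes on the arrays, and Acat2 and Insig1 were not analysed here. A filter on low signals kept 27 of them among 7507 tested genes. Fads1, a fatty acid desaturase, did not pass the filter, with signals of 0.244 to 8.39.

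Control cells were unstimulated. The others received the synthetic glucocorticoid dexamethasone (Dex) at 100 ng/ml, the growth factor interleukin-9 (IL-9) at 100 U/ml, the chemokine CCL1 at 100 U/ml, or Dex combined with 1 of these cytokines at the same doses. RNA was taken after 8 h, and all groups were grown in the same medium with fetal calf serum. Each of the 6 groups has 2 Affymetrix arrays, numbered 1 and 2 in the labels, and nothing in the labels says that the 2 are separate cultures. The p-values below rest on the spread of arrays around a fitted model, and the 2 arrays of a group may be technical repeats only. Signals are linear MAS5 intensities, and precision is limited by how few arrays there are. The array CCL1 2 was of another array type and stood in a table of its own, so it entered a fit only as an added alternative, and CCL1 alone otherwise had n = 1. RNA of a whole culture cannot tell a change in every cell from a change in some of the cells.

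Cells build cholesterol from acetyl-CoA through mevalonate and squalene, and the last steps turn lanosterol into cholesterol. The same acetyl-CoA is the start of fatty acid synthesis. Both pathways are controlled by the SREBP transcription factors, encoded by Srebf1 and Srebf2, which the escort protein Scap carries out of the endoplasmic reticulum when membrane sterol is low. Proliferating lymphocytes depend on this program for new membrane.

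The labels were first set against known glucocorticoid receptor targets. Fkbp5, a chaperone gene induced by the receptor, had signals of 526 to 753 on the 6 Dex arrays and of 277 to 348 on the number 2 arrays labelled without Dex. On the number 1 arrays labelled without Dex it had 638 to 767, which is at the Dex level. Tsc22d3, another target, had 260 to 422, 58.7 to 109 and 230 to 347 on the same sets of arrays. Of the other listed targets, Klf9 and Zbtb16 did not pass the filter. Per1 had 46.7 on CCL1 2, inside its range of 43.9 to 78.1 on the Dex arrays. Whether the labels of the number 1 arrays without Dex are wrong could not be settled. Dex comparisons are therefore given within each number as well as averaged. The array Dex 2 also stood apart: 4.94% of the kept probe sets differed by over 1 log2 between Dex 1 and Dex 2, against 0.199% to 1.11% in the other groups. Its signal of Ptprc, the leukocyte gene CD45, was 1510, against 2213 to 3222 on the other 11 arrays. The T lineage markers, 9 of 10 with a probe set and 7 of them past the filter, had summed signals of 4780 to 6566. That sum includes Ptprc, and the markers Cd2 (0.173 to 14.4) and Cd5 (0.231 to 7.01) did not pass the filter. Cd3g had 531 to 661 and Thy1 878 to 1525. Among markers of other cells, the myeloid Lyz2 (2.22 to 12.1) and Csf1r (7.37 to 24.6) and the fibroblast Col1a2 (1.01 to 16.2) passed it. Markers of other cells had summed signals of 4.30 to 18.6 for the B lineage, 14.0 to 34.1 for myeloid cells, 0.483 to 5.27 for erythroid cells, 1.60 to 27.5 for fibroblasts and 0.629 to 11.01 for adipocytes, and their part in the results was not tested.

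**Figure D1:**
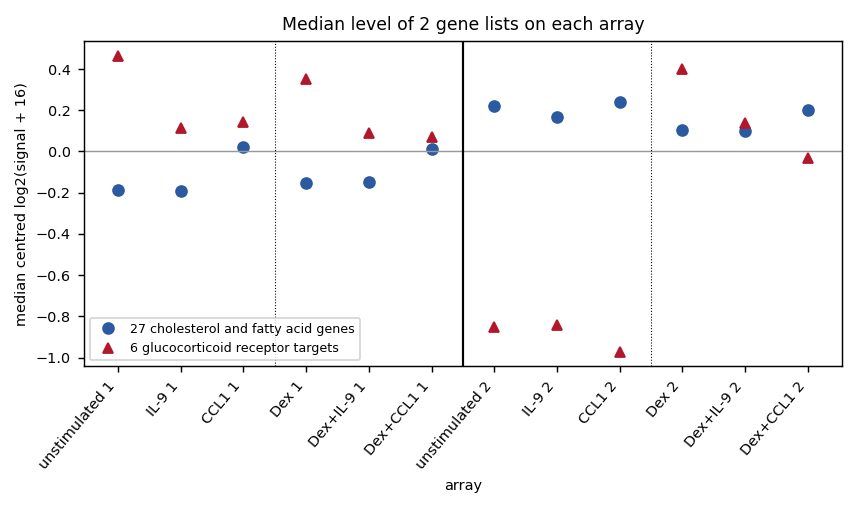
Median log2(signal + 16) of 27 cholesterol and fatty acid synthesis genes (circles) and of 6 glucocorticoid receptor targets (triangles) on each of 12 arrays, after centring each gene on its mean over 11 arrays; the solid line divides number 1 from number 2 and dotted lines divide arrays without Dex from those with Dex. The lipid genes lie between -0.19 and 0.024 on the number 1 arrays and between 0.10 and 0.24 on the number 2 arrays, while the receptor targets lie from -0.97 to -0.84 on the number 2 arrays without Dex and from -0.032 to 0.47 on the other 9.

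Linear models of 2 kinds were fitted in limma over 13575 probe sets of 11 arrays, with Benjamini-Hochberg adjustment and a threshold of 0.05. The group model gave each of the 6 groups a mean. The number model gave each combination of Dex label and replicate number a mean and added 1 term for IL-9 and 1 term for CCL1. Each of the 11 arrays has its own mix of Dex label, number and cytokine in the number model. Its standard errors and p-values thus rest on how far cytokine differences vary between the combinations, not on repeat arrays. No lipid gene passed the threshold in any of the 12 comparisons of these models, so their differences are given below as values with standard errors (SE) in log2 of signal + 16. Counts of genes at an unadjusted p under 0.05 are given beside the share of all 13575 probe sets at that p.

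Among the 12 comparisons, the largest median difference of the lipid genes was between the replicate numbers. Among the arrays labelled without Dex, 23 of 27 genes were higher in number 2, with a median difference of 0.48, against 0.020 over all probe sets. None of the 27 passed the threshold, which 0.796% of probe sets did. At an unadjusted p, 14 genes (51.9%) had a difference and all 14 were higher in number 2, against 9.17% of probe sets in either direction and 5.17% higher. Among the arrays with Dex, 22 of 27 were higher in number 2, with a median of 0.21, against -0.00081 over all probe sets. Again 0 passed, as did 0.0221% of probe sets. Here 10 genes (37.0%) were at an unadjusted p, all higher, against 15.8% of probe sets in either direction and 6.72% higher. The glucocorticoid receptor targets went with the number as well: without Dex 5 of 6 tested were lower in number 2 past the threshold (median -1.04), and with Dex 0 of 6 were (median 0.070). Whether this has a part in the lipid values was not tested.

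**Figure D2:**
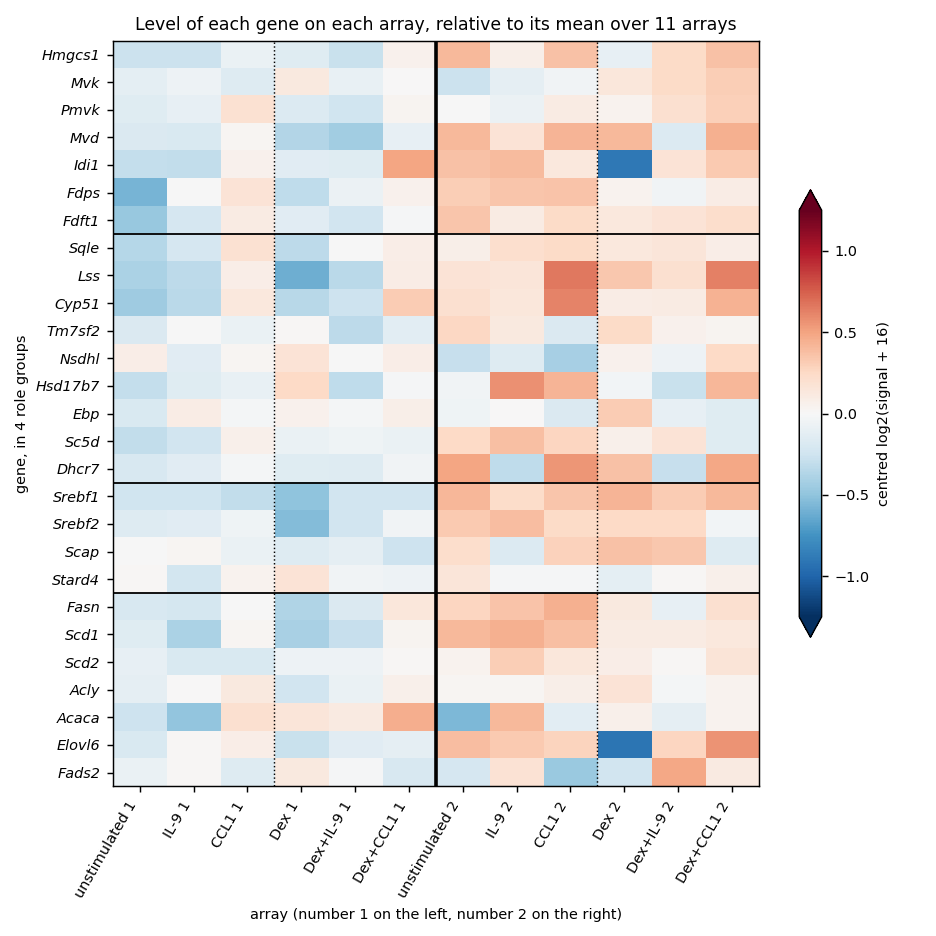
Centred log2(signal + 16) of 27 genes (vertical axis, in 4 role groups divided by lines: mevalonate and squalene steps, steps after squalene, regulators and sterol transfer, fatty acid synthesis) on 12 arrays (horizontal axis); red is above and blue below the gene's mean over 11 arrays. The median of the genes is below 0 on 4 of the 6 number 1 arrays, at 0.012 and 0.024 on Dex+CCL1 1 and CCL1 1, and above 0 on the 6 number 2 arrays; Idi1 and Elovl6 are darkest blue on Dex 2.

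Srebf1, which encodes SREBP1, separated the numbers on all arrays. Its signal was 143 in unstimulated 1, 117 in Dex 1, 143 in IL-9 1, 136 in CCL1 1, 143 in Dex+IL-9 1 and 144 in Dex+CCL1 1. In number 2 it was 236 in unstimulated 2, 237 in Dex 2, 205 in IL-9 2, 220 in Dex+IL-9 2 and 233 in Dex+CCL1 2, and 225 in the separate array CCL1 2. Every number 2 array was above every number 1 array, whatever the treatment. The difference was 0.60 (SE 0.13, adjusted p = 0.0754 in limma) without Dex and 0.71 (SE 0.12, adjusted p = 0.0974) with Dex. Srebf2, which encodes SREBP2, the factor best known for cholesterol synthesis genes, had 80.5 to 121 on the 6 number 1 arrays and 122 to 168 on the 5 number 2 arrays of the same table, with differences of 0.49 (SE 0.16) and 0.43 (SE 0.14). The escort gene Scap had a difference of -0.029 (SE 0.15) without Dex and 0.36 (SE 0.13) with Dex, and Stard4, a sterol carrier, of 0.14 (SE 0.14) and -0.037 (SE 0.12).

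Of the 7 tested genes from mevalonate to squalene, 5 were at an unadjusted p without Dex (all probe sets 9.17%, and 5.17% higher) and 4 with Dex (15.8%, and 6.72% higher), all of them higher in number 2. Hmgcs1, the synthase that makes HMG-CoA, had signals of 449, 448 and 513 in unstimulated 1, IL-9 1 and CCL1 1, and of 724 and 574 in unstimulated 2 and IL-9 2. Its arrays without Dex did not overlap between the numbers, and the difference was 0.53 (SE 0.14, adjusted p = 0.162). Fdps, which makes farnesyl diphosphate, had 442, 671 and 758 in number 1 and 837 and 856 in number 2, a difference of 0.56 (SE 0.16). Mvd, the mevalonate diphosphate decarboxylase, differed by 0.50 (SE 0.17) without Dex and 0.53 (SE 0.14) with Dex. Another Mvd probe set, with a median signal of 53.7, differed by 0.51 without Dex and by only 0.11 with Dex. Fdft1, the squalene synthase, differed by 0.50 (SE 0.15) and 0.30 (SE 0.13). Mvk, the mevalonate kinase, had a difference of -0.074 (SE 0.16) without Dex, and was 1 of 4 lipid genes below 0 there.

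Of the 9 genes after squalene, 4 were at an unadjusted p without Dex (all probe sets 9.17%) and 2 with Dex (all probe sets 15.8%), all higher in number 2. Lss, the lanosterol synthase that closes the ring, had signals of 68.0, 71.9 and 101 in unstimulated 1, IL-9 1 and CCL1 1 and of 56.3, 71.3 and 102 in Dex 1, Dex+IL-9 1 and Dex+CCL1 1. In number 2 it had 108 and 107 in unstimulated 2 and IL-9 2 and 123, 111 and 155 in Dex 2, Dex+IL-9 2 and Dex+CCL1 2. The lowest number 2 array was above the highest number 1 array, and the differences were 0.53 (SE 0.14) without Dex and 0.68 (SE 0.12, adjusted p = 0.105) with Dex. Cyp51, the lanosterol demethylase, had 323, 349 and 489 in the number 1 arrays without Dex and 515 and 493 in number 2, a difference of 0.55 (SE 0.12, adjusted p = 0.0580). With Dex its arrays overlapped, because Dex+CCL1 1 had 560.0, and the difference was 0.30 (SE 0.10). Nsdhl, a sterol dehydrogenase, had a difference of -0.18 (SE 0.13) without Dex, and Ebp, the sterol isomerase, had differences of -0.00040 (SE 0.16) and -0.016 (SE 0.14).

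In fatty acid synthesis all 7 tested genes were higher in number 2 without Dex and 6 of 7 with Dex. Fasn, the fatty acid synthase, had 351, 346 and 405 in unstimulated 1, IL-9 1 and CCL1 1 and 491 and 525 in unstimulated 2 and IL-9 2, a difference of 0.55 (SE 0.13, adjusted p = 0.0908). Scd1, a desaturase that makes oleate, had 31.7 to 48.5 on the 6 number 1 arrays and 51.8 to 69.8 on the 5 of number 2, with differences of 0.67 (SE 0.16) without Dex and 0.33 (SE 0.14) with Dex. Its paralog Scd2 had 1329 to 1536 and 1537 to 1885 on the same arrays, with differences of 0.36 (SE 0.13) and 0.12 (SE 0.11). Acly, the source of cytosolic acetyl-CoA, had differences of 0.060 (SE 0.12) and 0.15 (SE 0.11). Acaca, which makes malonyl-CoA, had 0.21 (SE 0.25) and -0.24 (SE 0.22), with signals of 17.6 to 51.9 that did not follow the number.

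**Figure D3:**
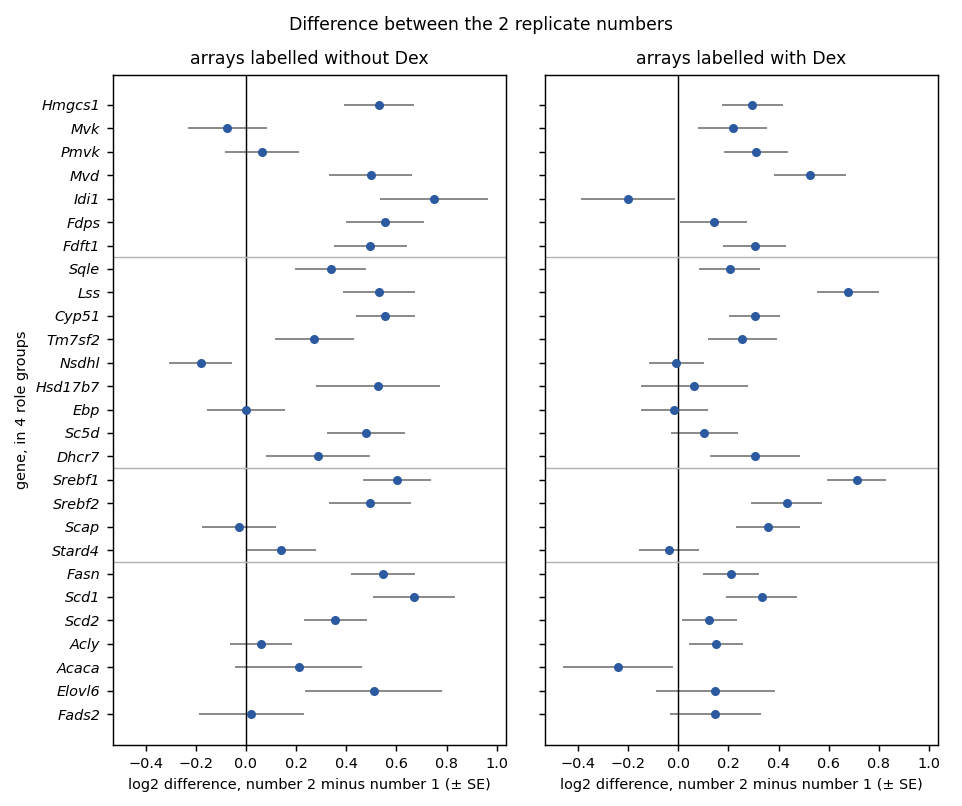
Number 2 minus number 1 difference in log2(signal + 16) with its SE for 27 genes, in arrays labelled without Dex (left) and with Dex (right). Without Dex 23 of 27 points lie above 0 and with Dex 22 of 27; Idi1 is at 0.75 on the left and -0.20 on the right.

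Within the 5 treatment pairs of the larger table, 13 of 27 genes were higher in number 2 in every pair, against 6.93% of all probe sets, and 0 were lower in every pair, against 5.42%. The 13 were Cyp51, Fasn, Fdft1, Fdps, Hmgcs1, Lss, Mvd, Pmvk, Scd1, Scd2, Srebf1, Srebf2 and Tm7sf2. Leaving out the pair with Dex 2 gave 16 genes in the other 4 pairs, against 9.56%. All number 2 arrays were above all number 1 arrays for 15 genes without Dex (14.3% of probe sets), for 9 with Dex (8.91%) and for 6 over all 11 arrays (1.35%). These 6 were Lss, Scd1, Scd2, Srebf1, Srebf2 and Tm7sf2, the last a sterol reductase. Tm7sf2 had 46.3 to 63.3 in number 1 and 64.05 to 77.8 in number 2 on these 11 arrays. On the separate array CCL1 2 it had 52.9, inside its number 1 range, while Lss, Scd1, Scd2, Srebf1 and Srebf2 were above theirs. Without the array Dex 2, 6 of 27 genes passed the threshold among the arrays without Dex, where 1.59% of probe sets did: Cyp51, Fasn, Fdps, Hmgcs1, Idi1 and Srebf1. Without Dex+IL-9 2, Lss, Mvd and Srebf1 passed among the arrays with Dex (adjusted p = 0.0248 to 0.0389), as did 3.89% of probe sets in that fit.

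With CCL1 no lipid gene passed the threshold in either model. In the number model 23 of 27 genes had a positive CCL1 term, with a median of 0.16, against -0.010 over all probe sets, of which 0.324% passed the threshold. At an unadjusted p there were 8 genes (29.6%), 7 of them higher and 1 lower, against 10.8% of probe sets in either direction and 4.49% higher. All 7 mevalonate and squalene genes and all 7 fatty acid genes had positive terms, with medians of 0.24 and 0.22, as had 7 of 9 genes after squalene (median 0.062) and 2 of 4 regulators (median 0.0093).

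Cyp51 had the smallest p, with a CCL1 term of 0.51 (SE 0.10, adjusted p = 0.0645 in limma). Within each combination of Dex label and number, its CCL1 array was the highest of the 3: 489 against 323 and 349 without Dex in number 1, 560.0 against 347 and 369 with Dex in number 1, and 607 against 476 and 479 with Dex in number 2. The separate array CCL1 2 had 692, against 515 and 493 in unstimulated 2 and IL-9 2. Its adjusted p was 0.0172 to 0.314 over the alternatives, and it passed the threshold in 5 of them, 1 of which left out Dex 2 (0.626% of probe sets passed there). Lss showed the same order in every combination, with a term of 0.48 (SE 0.12, adjusted p = 0.127). CCL1 2 had 158 for Lss, and with that array added Lss passed too (0.49, adjusted p = 0.0457), as did 0.81% of probe sets. Its adjusted p over all alternatives was 0.0457 to 0.452.

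Idi1, the isomerase that makes dimethylallyl diphosphate, had a CCL1 term of 0.69 (SE 0.18, adjusted p = 0.146). Its signals were 264 in CCL1 1 against 203 and 202 in unstimulated 1 and IL-9 1, and 363 in Dex+CCL1 1 against 229 and 227 in Dex 1 and Dex+IL-9 1. In number 2 with Dex it was 322 against 129 and 288, and CCL1 2, at 279, lay below unstimulated 2 at 331 and IL-9 2 at 338. The order thus turned in the array of the separate table. Fdps had a term of 0.37 (SE 0.13), Sqle, the squalene epoxidase, of 0.30 (SE 0.12), and Fasn of 0.28 (SE 0.11). Elovl6, which elongates palmitate, had a term of 0.56 (SE 0.23). Its CCL1 array exceeded the mean of the other 2 by 0.16 and 0.099 in number 1 and by 0.88 in the combination that holds Dex 2. For CCL1 2 the value against unstimulated 2 and IL-9 2 was -0.076. Scap had a term of -0.28 (SE 0.12) and was lowest in the CCL1 array in all 3 combinations of the larger table, while CCL1 2, at 329, was above unstimulated 2 at 313 and IL-9 2 at 235. The SREBP genes had terms of 0.030 (SE 0.11) for Srebf1 and 0.11 (SE 0.14) for Srebf2.

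**Figure D4:**
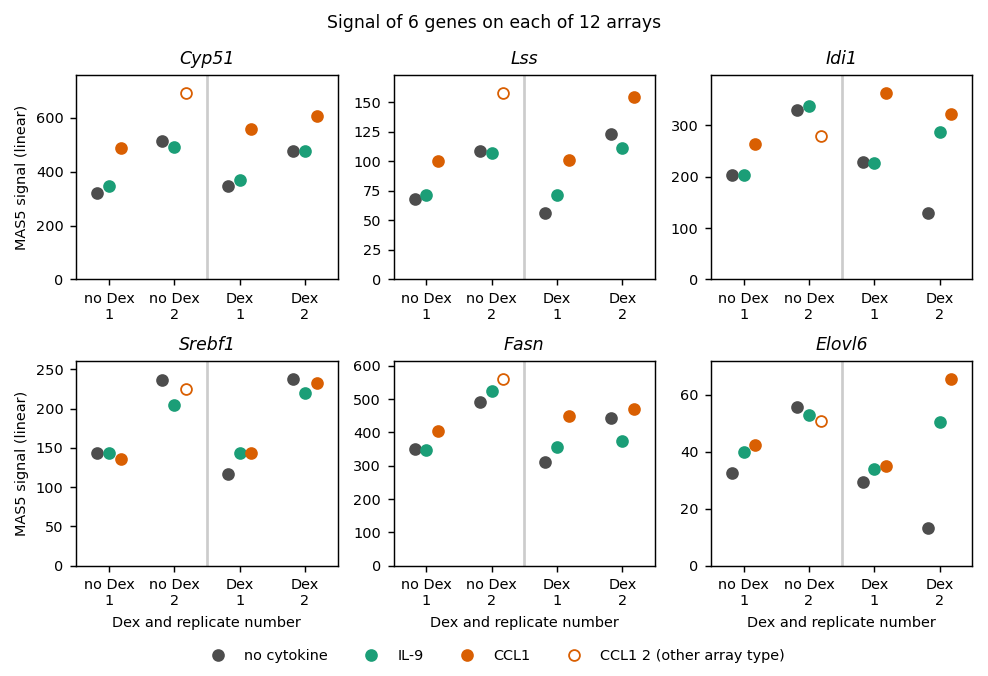
Linear MAS5 signal of 6 genes on each of 12 arrays, by Dex label and replicate number (horizontal axis) and cytokine (colour); the open circle is the array CCL1 2 of the separate table. The CCL1 arrays of Cyp51 and Lss are the highest of each set of 3, the number 2 arrays of Srebf1 all lie above those of number 1, and Idi1 and Elovl6 are lowest on Dex 2.

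The CCL1 array was the highest of its 3 in all 3 combinations of the larger table for 12 genes, against 4.55% of probe sets: Cyp51, Dhcr7, Elovl6, Fasn, Fdft1, Fdps, Hmgcs1, Idi1, Lss, Mvd, Pmvk and Scd1. Without the combination that holds Dex 2 the count was 16 in the other 2, against 12.2% of probe sets. With the combination that holds CCL1 2 added, 7 genes had the CCL1 array highest in all 4, against 2.36% of probe sets: Cyp51, Dhcr7, Fasn, Fdps, Lss, Mvd and Pmvk.

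**Figure D5:**
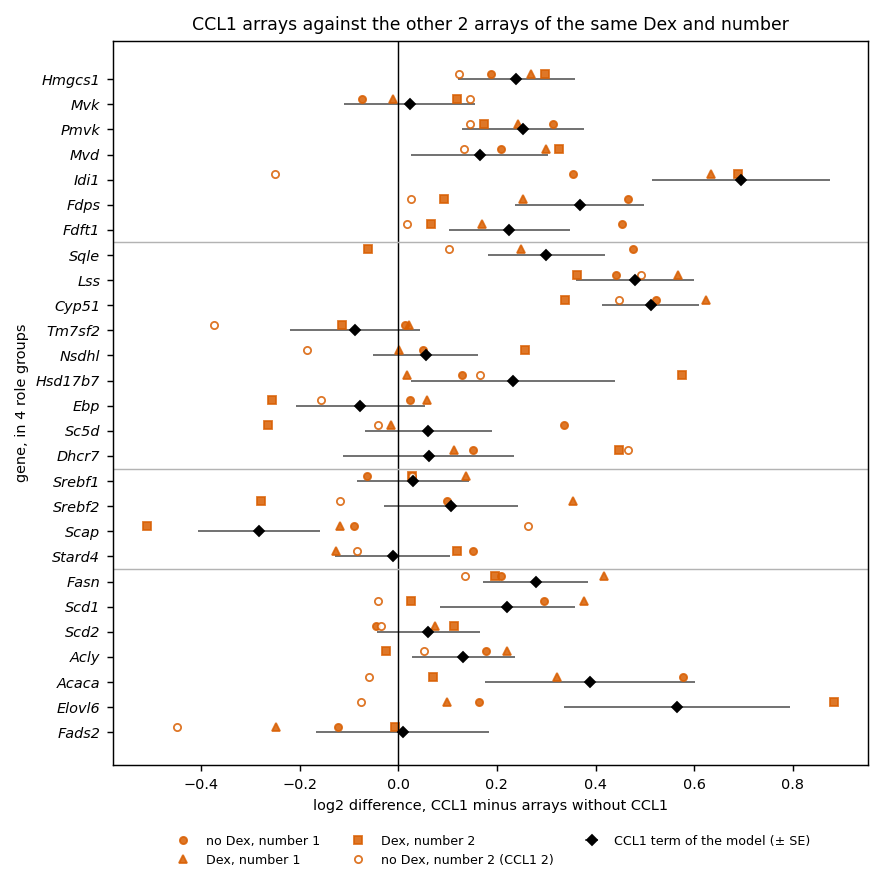
CCL1 arrays against the other 2 arrays of the same Dex label and number, in log2(signal + 16), for 27 genes; orange symbols are single combinations, the open circle holds the separate array CCL1 2, and black diamonds are the CCL1 term of the number model, against arrays with no cytokine, with its SE. For Cyp51 and Lss all 4 combinations lie between 0.34 and 0.62; for Idi1 they run from -0.25 to 0.69.

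In the group model the CCL1 groups were compared with their own controls. Without Dex the CCL1 array was number 1 and the unstimulated arrays were both numbers, so part of the number difference enters that comparison. For CCL1 minus unstimulated, with 1 CCL1 array, 14 of 27 lipid genes were higher and 13 lower, with a median of 0.021 (all probe sets -0.031). All 4 regulators and 5 of 7 fatty acid genes were below 0. Set against unstimulated 1 alone, CCL1 1 was higher for Srebf2, Stard4, Fasn, Scd1 and Elovl6 and lower for Srebf1, Scap, Scd2 and Fads2. None was called (background 0.0%) or at an unadjusted p (background 3.29%). The 4 smallest p were those of Acaca (0.61, SE 0.34), Sqle (0.34, SE 0.26), Pmvk (0.27, SE 0.25) and Fdps (0.31, SE 0.31), and the adjusted p was 1.00 for all 4. For Dex+CCL1 minus Dex the median was 0.11 (all probe sets -0.0041), and 22 of 27 genes were higher. None was called (background 0.00737%), and 2 were at an unadjusted p (7.41%, background 6.52%): Idi1 at 0.93 (SE 0.30) and Elovl6 at 0.82 (SE 0.30), both with an adjusted p of 0.738. Cyp51 at 0.50 (SE 0.25) and Scap at -0.31 (SE 0.21) followed. Idi1 had 129 and Elovl6 had 13.3 on Dex 2, against 202 to 363 and 29.5 to 65.4 on the other 11 arrays. Without Dex 1, where Dex 2 alone stands for Dex, 3.89% of probe sets passed the threshold and Idi1 was the 1 of 27 lipid genes that did (1.31, adjusted p = 0.0332; 0.0332 to 0.970 over the alternatives). Without Dex 2 the median of the lipid genes was 0.34.

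The proximal promoters of 3 of these genes are shown because the representative probe sets of Hmgcs1, Lss and Cyp51, enzymes of the mevalonate branch, of ring closing and of the next step, were all higher in number 2. The sequences are the 250 bases before the RefSeq start in GRCm38.p6, written 5′ to 3′ on the strand of the gene: Hmgcs1 from chr13:119690101-119690350 (+), Cyp51 from chr5:4104698-4104947 (-) and Lss from chr10:76531355-76531604 (+). Capitals mark matches to the sterol regulatory element core TCACNCCAC, the CCAAT box and the GC box GGGCGG on either strand, which SREBP, NF-Y and Sp1 are known to bind.
Hmgcs1: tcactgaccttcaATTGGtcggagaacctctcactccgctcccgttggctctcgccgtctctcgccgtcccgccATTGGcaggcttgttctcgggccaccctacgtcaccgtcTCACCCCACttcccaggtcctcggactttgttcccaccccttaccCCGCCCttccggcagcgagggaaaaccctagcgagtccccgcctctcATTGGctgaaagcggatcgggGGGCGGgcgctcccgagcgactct
Cyp51: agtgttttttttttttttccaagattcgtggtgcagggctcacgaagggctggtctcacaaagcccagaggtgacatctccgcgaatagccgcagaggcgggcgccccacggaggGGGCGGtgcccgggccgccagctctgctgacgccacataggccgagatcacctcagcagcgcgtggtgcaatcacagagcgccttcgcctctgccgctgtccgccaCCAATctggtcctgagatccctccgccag
Lss: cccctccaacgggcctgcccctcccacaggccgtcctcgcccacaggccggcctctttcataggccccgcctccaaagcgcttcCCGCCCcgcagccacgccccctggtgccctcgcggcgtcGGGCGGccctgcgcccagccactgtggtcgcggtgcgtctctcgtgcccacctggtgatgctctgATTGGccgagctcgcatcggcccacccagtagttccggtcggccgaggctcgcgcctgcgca

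Hmgcs1 holds 1 match to the sterol element core, at position -137 from the start, with 3 CCAAT and 2 GC boxes in the stretch shown. Cyp51 holds 1 CCAAT and 1 GC box, and Lss 1 CCAAT and 2 GC boxes. RefSeq windows of 250 bases before to 50 after the start matched 23 of the 30 genes, with 29 windows. A CCAAT box stood in 65.5% of these windows, against 37.4% of all 32851 windows, and a GC box in 75.9%, against 35.7%. The sterol element core stood in 1 window (3.45%), that of Hmgcs1, against 1.24% of all. A match is a description of the letters, and its absence says only that they are not in this window.

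The Dex label was compared within each number, since the number 1 arrays without Dex had the receptor targets at the Dex level. In number 1 the lipid genes had a median of 0.038 (all probe sets 0.015), from -0.18 for Mvd to 0.42 for Acaca. None was called (background 0.0%) or at an unadjusted p (background 2.5%). In number 2, where all 6 receptor targets rose (Tsc22d3 by 1.80), 18 of 27 lipid genes were lower with Dex, with a median of -0.099 (all probe sets -0.012). None was called (background 0.597%), and 5 were at an unadjusted p (18.5%, background 10.5%). Idi1 differed by -0.70 (SE 0.22, adjusted p = 0.284), Fasn by -0.33 (SE 0.13), Fdps by -0.39 (SE 0.16) and Scd1 by -0.39 (SE 0.16), while Mvk was higher by 0.42 (SE 0.16). Mvk had 49.8, 54.6 and 58.0 on the number 2 arrays with Dex and 33.7 and 39.3 on those without, with no overlap. Another probe set of Mvk, with a median signal of 28.2, had the other sign, at -0.13. Fdps had 692, 651 and 717 with Dex and 837 and 856 without. The value of Idi1 turns on Dex 2, at 129, since Dex+IL-9 2 had 288 and Dex+CCL1 2 had 322, against 331 and 338 without Dex. Without Dex+IL-9 2, Idi1 passed the threshold (-0.98, adjusted p = 0.0469; 0.0469 to 0.768 over the alternatives), which 0.862% of probe sets did. These Dex differences and the number differences without Dex share the arrays unstimulated 2 and IL-9 2.

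The Dex difference of number 2 minus that of number 1 had a median of -0.13 for the lipid genes (all probe sets -0.026). None was called (background 0.206%), and 1 was at an unadjusted p (3.70%, background 10.1%), Idi1 at -0.95 (SE 0.29, adjusted p = 0.340). In the group model the Dex difference was averaged over cytokines. The numbers are not balanced in it, since CCL1 without Dex had only number 1, so part of the number difference enters. Dex gave a median of 0.018 (all probe sets 0.0028) there. None was called (background 0.0%) or at an unadjusted p (background 1.53%), and the 4 smallest p were those of Mvk (0.27, SE 0.12), Nsdhl (0.16, SE 0.10), Elovl6 (-0.22, SE 0.19) and Acaca (0.20, SE 0.18).

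With IL-9 the medians of the lipid genes were at most 0.024. For IL-9 minus unstimulated the median was 0.024 (all probe sets -0.019), and 0 genes were called (background 0.0221%) or at an unadjusted p (background 4.89%). The 4 smallest p were those of Hsd17b7, a sterol reductase (0.37, SE 0.26), Dhcr7, the last enzyme of the pathway (-0.37, SE 0.27), Acaca (0.37, SE 0.28) and Fdps (0.31, SE 0.25). Fdps had 639 ± 279 (SD, n = 2) unstimulated and 763 ± 130 (SD, n = 2) with IL-9, which overlap. Within each number it was higher with IL-9, at 671 against 442 in number 1 and 856 against 837 in number 2. Without unstimulated 1 its difference was -0.14, with unstimulated 2 alone set against both IL-9 arrays. Without IL-9 2 the difference of Acaca was -0.080. Without unstimulated 1 the median of the lipid genes was -0.20, and without unstimulated 2 it was 0.23. Each of these fits holds only 1 of the numbers in 1 group, so part of the number difference enters.

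For Dex+IL-9 minus Dex the median was 0.0026 (all probe sets -0.021), and 0 genes were called (background 0.0221%) or at an unadjusted p (background 5.7%). The 4 smallest p were those of Elovl6 (0.66, SE 0.30), Idi1 (0.53, SE 0.30), Ebp (-0.25, SE 0.16) and Hsd17b7 (-0.40, SE 0.26). Elovl6 had 42.3 ± 11.6 (SD, n = 2) with Dex and IL-9 and 21.4 ± 11.4 (SD, n = 2) with Dex. In the number model the IL-9 term had a median of 0.015 (all probe sets -0.012), with 0 genes called (background 0.818%) and 1 at an unadjusted p (3.70%, background 13.5%). That gene was Dhcr7, with a term of -0.35 (SE 0.16, adjusted p = 0.353). Its signal was 56.2 and 57.2 in IL-9 2 and Dex+IL-9 2, against 110 and 99.5 in unstimulated 2 and Dex 2. In number 1 it was 65.4 in IL-9 1 against 61.8 in unstimulated 1, and 64.1 in Dex+IL-9 1 against 64.6 in Dex 1. The IL-9 arrays of Dhcr7 thus lay well below these controls in number 2 and close to them in number 1. That difference between the numbers was not tested. Mvd at -0.23 (SE 0.12), Elovl6 at 0.37 (SE 0.20) and Fads2, a desaturase, at 0.27 (SE 0.16) followed.

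Other probe sets of the same genes allow a check of these values. In 14 genes, 20 further probe sets passed the filter and none of them passed the threshold in any of the 12 comparisons. For the CCL1 term and for the number difference without Dex, 17 of 20 had the sign of the representative probe set, and for the number difference with Dex 12 of 20. The brighter of 2 further Cyp51 probe sets had a CCL1 term of 0.39 and number differences of 0.58 without and 0.0012 with Dex. The further Lss probe set, with a median signal of 11.3, had a CCL1 term of 0.24 and number differences of -0.043 and -0.039, unlike the representative one. The further probe set of Idi1 had 0.44, 0.45 and -0.33, in the order of the representative one. For Elovl6 the further probe set (median signal 26.9) had a CCL1 term of 0.068, against 0.56. It had 0.13 for Dex+CCL1 minus Dex, against 0.82, and 0.090 for Dex+IL-9 minus Dex, against 0.66. For Hsd17b7 it (19.9) had -1.06 for Dex in number 2, -0.79 for the number with Dex and -1.46 for the difference of the Dex differences. The representative one had -0.31, 0.064 and -0.46. For Mvk the further probe set (28.2) had -0.13 for Dex in number 2, against 0.42. It had 0.33 for the number without Dex, against -0.074. For Mvd the further probe set (53.7) had 0.11 for the number with Dex, against 0.53.

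Among 20 other sterol and SREBP genes, 14 were tested and 0 passed the threshold in any of the 12 comparisons. Msmo1, which takes the methyl groups from sterols after Cyp51, had a CCL1 term of 0.48 (SE 0.12, adjusted p = 0.135) and a number difference without Dex of 0.53 (SE 0.14, adjusted p = 0.168). Elovl5, an elongase of polyunsaturated fatty acids, had values of the other sign, -0.43 (SE 0.10, adjusted p = 0.116) and -0.40 (SE 0.12, adjusted p = 0.239). The list had medians of 0.060 for the CCL1 term, 0.11 for the number without Dex and 0.0088 for the number with Dex. Of 8 genes of the sterol receptor LXR and of cholesterol efflux or storage, 3 were tested and 0 passed. The 2 with the smallest p for the number with Dex were Npc2 (0.28, SE 0.12) and Npc1 (0.24, SE 0.14), both lysosomal cholesterol carriers.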

How the data were processed

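RNA of 12 arrays was measured, 2 in each of 6 groups. The deposited values were signal intensities from MAS5, per the submitters' processing notes, whose version is not given in the sources used here. On each array the mean intensity after trimming 2% at each end was 99.1 to 99.4, so a change of all genes one way could not be seen. After removal of 64 control probe sets 22626 remained, of which 20380 had 1 gene symbol, 691 several and 1555 none. GRCm38.p6 tables served for names, which changed 0 symbols, and for promoter sequences.

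Signals were transformed as log2(signal + 16), which understates folds of low signals. Probe sets above the 40th percentile of the mean were kept (13575, a signal of 6.32). Differences were tested with limma 3.58.1 (R 4.3.3), with an intensity trend and 5 residual degrees of freedom. All 27 tested genes could be named, with those of smallest p given by value. The genes, lists and comparisons were chosen with earlier results of these data known.

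Both models were refitted with pseudocounts of 1 or 64, with no filter or a 60th percentile filter, quantile normalization, median centring, no intensity trend, CCL1 2 added, 1 probe set per gene and each array left out, and the group model also with the replicate number as a block. Only the counts over pairs and combinations of arrays without Dex 2 or with CCL1 2 were added as alternatives after the data were seen.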

Additional observations from a re-analysis of the deposited data

Results flagged for a closer look

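The array CCL1 2, which entered a fit only as an added alternative, held Hsd17b7, a sterol reductase of the late cholesterol pathway, at a signal of 39.8. The 2 unstimulated arrays had 17.8 and 24.3, so it lay above both by more than they differed from each other. IL-9 2 had 45.4 and Dex+CCL1 2 had 39.4, while CCL1 1 had 22.8. Of the 27 tested genes, 15 (55.6%) were above both unstimulated arrays in CCL1 2, against 32.9% of all kept probe sets.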

How the results depend on the processing

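Under each change of scaling, filter or pseudocount the median of the lipid genes kept its sign for the CCL1 term (0.11 to 0.22) and for the number difference without Dex (0.30 to 0.53) and with Dex (0.16 to 0.28). Counts of lipid genes past the threshold, which were 0 in the fits described, moved as follows. The CCL1 term had 1 (Cyp51) with pseudocount 64, the 60th percentile filter or 1 probe set per gene and 2 with CCL1 2 added. In that last fit 0.81% of probe sets passed. The number difference without Dex had 1 with the 60th percentile filter or 1 probe set per gene. It had 2 with quantile normalization and 4 with CCL1 2 added. Over these settings 9 to 110 probe sets passed for the CCL1 term and 65 to 199 for the number difference without Dex. Both highest counts came with CCL1 2 added, and the number of probe sets tested differs between settings. For the other settings no share of all probe sets is given beside the counts of lipid genes, so nothing is concluded from those counts. With CCL1 2 added, 7 genes had CCL1 highest in every combination, against 2.36% of probe sets.

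Counts over all probe sets also moved. Dex+IL-9 minus Dex had 5 with pseudocount 64, median centring or CCL1 2 added, and CCL1 minus unstimulated had 1 with pseudocount 64, CCL1 2 added or 1 probe set per gene. Without the filter the counts were 49 for the IL-9 term, 9 for the CCL1 term, 44 for Dex in number 2 and 65 for the number without Dex. The IL-9 term had 70 with median centring or without the intensity trend; without that trend the CCL1 term had 20, the number with Dex 1 and Dex+CCL1 minus Dex 0. With CCL1 2 added the CCL1 term had 110 and the number without Dex 199. The cause was not tested.

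The replicate number as a block gave 6 probe sets for Dex+IL-9 minus Dex and changed no call of a lipid gene. The labels share only a number: over 10 pairs of groups the number differences correlated at -0.0051 to 0.31 across probe sets, which are not replicates.

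With each array left out in turn, lipid genes past the threshold numbered 0 to 1 for Dex+CCL1 minus Dex, the CCL1 term and Dex in number 2, 0 to 6 for the number without Dex and 0 to 3 with Dex. Where a group was left with 1 array, that array was assumed to vary like the others. In the group model such a group held only 1 of the numbers, so part of the number difference entered its comparisons. Probe sets past the threshold numbered 3 to 5 for IL-9 minus unstimulated, 2 to 668 for Dex+IL-9 minus Dex, 0 to 1 for CCL1 minus unstimulated and 0 to 528 for Dex+CCL1 minus Dex, both highest counts without Dex 1. They numbered 14 to 151 for the IL-9 term, 2 to 85 for the CCL1 term, 29 to 117 for Dex in number 2, 15 to 44 for the difference of the Dex differences, 46 to 216 for the number without Dex and 0 to 528 with Dex, the last highest without Dex+IL-9 2. The median of the lipid genes ran from -0.20 to 0.23 for IL-9 minus unstimulated, from -0.18 to 0.20 for CCL1 minus unstimulated, from -0.17 to 0.18 for Dex+IL-9 minus Dex and from 0.0035 to 0.34 for Dex+CCL1 minus Dex. For IL-9 minus unstimulated, Acaca ran from -0.080 to 0.82 and Fdps from -0.14 to 0.76, and for CCL1 minus unstimulated Fdps ran from -0.14 to 0.76.

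The number 1 arrays labelled without Dex, the separate array CCL1 2 and the single pair of arrays in each group limit these values. Low signals limit them too: Fads2, at 2.95 to 15.3 on 11 arrays and 0.274 on CCL1 2, has differences that the pseudocount compresses.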
